A study of Mus musculus with 36 samples.

Results

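Germ cells of XY fetal mouse gonads were compared between 13.5 and 12.5 days post coitum (dpc). The 3 arrays of XY germ cells at 13.5 dpc and the 3 at 12.5 dpc were chosen by their labels and make up 6 of the 36 arrays of the series. Cells of both stages carried an Oct4 reporter, so that a cell was collected by the activity of the gene Pou5f1, which encodes the pluripotency factor OCT4. Germ cells that no longer used the reporter would be missed. The mice descended from C57BL/6NJ on a mixed background. Gonads were pooled by sex before they were dissociated, so an array holds cells of several fetuses, and living fluorescent cells were sorted. The labels name no treatment. XX germ cells with the same reporter and background at 13.5 and 12.5 dpc (3 and 2 arrays used) and germ cells of both sexes at 11.5 dpc (3 arrays each) served for comparison. Sorted supporting cells, the precursors of Sertoli and granulosa cells, entered only the shared estimate of spread and the checks of purity. XY supporting cells at 13.5 and 12.5 dpc were collected by a Sox9 reporter, and the labels give their strain as Tg(Sox9-cre/ERT2)1Msan/J, descended from C57BL/6. XY supporting cells at 11.5 dpc and XX supporting cells of all 3 stages were collected by an Sry reporter, with the strain given as Tg(Sry-EGFP)92Ei, descended from CD-1.

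In the fetal testis, germ cells stop dividing over these days and arrest in G1 as prospermatogonia, while ovarian germ cells of the same age enter meiosis under retinoic acid. The male path is known to need the RNA-binding protein NANOS2, which represses the meiotic programme. Later in fetal life the arrested cells use small RNAs bound to PIWI proteins (piRNAs) to find transposons and to direct DNA methylation to them. Pluripotency genes such as Nanog and Sox2, active in primordial germ cells, are known to be shut down as the cells differentiate in either sex.

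Expression was measured on Affymetrix Mouse Gene 1.0 ST arrays. A level is given in log2 relative to the median gene of its array, so that a negative level lies below that median, and levels of different genes are not compared, since probes differ. Changes are log2 differences of means, 13.5 minus 12.5 dpc, with the standard error (SE) of the fit and the Benjamini-Hochberg adjusted p (padj) of limma over 19938 genes. A gene is said to rise or fall where padj was under 0.05. Replicates among the 6 arrays correlated at 0.975 to 0.991. Before centring, the array medians were 6.54 to 6.96 at 13.5 dpc and 6.86 to 6.91 at 12.5 dpc on the deposited log2 scale. Within each array the rows of the table lay on up to 3 slightly different linear scales, which set groups of rows 0.171 to 0.742 apart in these arrays. The counts and the named genes were therefore also computed after these row sets had been put on 1 scale, called row sets aligned below. Nothing in the labels says that the arrays of a stage came from separate litters. A p-value therefore speaks only of how far replicate arrays scatter within all groups of the fit, supporting cells included. Part of that scatter went with the row scales, as the median replicate SD was 0.227 for centred values and 0.107 with row sets aligned. The scatter that remains may be technical too.

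The germ cell markers bore out the label. The RNA helicase gene Ddx4 lay at 4.71 to 5.14 at 13.5 dpc and at 4.58 to 4.78 at 12.5 dpc, against -0.90 or lower in XY supporting cells of these stages. Pou5f1 lay at 4.01 to 4.10 at 13.5 dpc and at 3.80 to 4.39 at 12.5 dpc. The Sertoli cell factor Sox9 lay at 0.79 to 0.91 at 13.5 dpc and at 0.75 to 1.24 at 12.5 dpc, against 4.14 to 4.86 in XY supporting cells, which had been sorted by a reporter of this same gene. The other supporting cell genes Amh, Kitl, Wt1 and Gata4 were below every XY supporting cell array as well. Of 26 measured Sertoli cell genes, 10 fetal Leydig cell genes, 14 interstitial or stromal cell genes and 15 macrophage genes, 0 passed limma's test in either direction, and 2, 2, 1 and 1 had an unadjusted p under 0.05. The array medians of the Leydig cell genes did not overlap, at -0.64 to -0.35 at 13.5 dpc and -1.01 to -0.67 at 12.5 dpc. Of these genes 7 lay higher and 3 lower at 13.5 dpc, with Star at -0.26 to 0.33 against -0.90 to -0.46 (limma padj = 0.0643). Cyp11a1 lay at -1.59 to -1.41 against -2.10 to -1.68 (limma padj = 0.391). Cyp17a1 lay at -1.52 to -1.17 against -1.92 to -1.72 (limma padj = 0.375), while Hsd3b1 overlapped. The median change of the Leydig cell genes was 0.10, and -0.03 with row sets aligned. The macrophage gene Tyrobp lay at -0.49 to 0.17 at 13.5 dpc, against 0.21 to 1.05 at 12.5 dpc (limma padj = 0.0805). Stages did not overlap for 16.4% of all genes. Other lists of this kind held calls, with 1 of 15 endothelial cell genes lower (Pecam1), 1 of 9 erythroid genes lower (Tfrc), 1 of 14 mesonephric and epithelial genes higher (Ret) and 1 lower (Lhx1), and 1 of 16 dissociation stress genes higher (Ier3). Of all genes 1.3% rose and 1.55% fell. With row sets aligned 1 stromal cell gene, Ptch1, passed (0.70, padj = 0.000557). The array labelled XX germ cells, 12.5 dpc, replicate 3 went against its label, with Ddx4 at -1.96 and the stromal cell gene Tcf21 at 3.82. This misfit array was left out of the fit.

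Between the stages 568 of 19938 genes changed, which is 2.85% of all genes tested. Of these, 259 rose (1.3% of all genes) and 309 fell (1.55%). Changes above 1 on the log2 scale were found for 92 of the genes that rose and 98 of those that fell, and changes above 2 for 8 and 2. The arrays of the stages did not overlap for 552 of the 568 genes, and for 16.4% of all genes. Lack of overlap thus goes with nearly every call and adds no separate support to one. The largest rises and falls named below were also chosen among genes without overlap. Since each array holds RNA of many cells, fewer cells with a transcript and less transcript per cell cannot be told apart. The count depended on the arrays and on the scale. It was 1075 (574 higher and 501 lower, 5.39% of all genes) with row sets aligned, of which 497 were called in the same direction both ways, and 270 with the misfit array put back into the fit. Without replicate 1 at 13.5 dpc it was 289, and without replicate 3 at 13.5 dpc it was 364.

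Replicate 2 at 13.5 dpc often lay nearest to the 12.5 dpc arrays. It was the lowest of the 3 arrays of its stage for 167 of the 259 genes that rose (64.5%), against 44% of all genes. It was the highest for 155 of the 309 genes that fell (50.2%), against 36.8% of all genes. With row sets aligned these shares were 58.9% and 59.9%, against 29.8% and 41.2% of all genes. Replicate 2 at 12.5 dpc was the highest of its stage for 40.5% of the genes that rose, against 41.6% of all genes. With row sets aligned it was so for 49.1%, against 36.5%. It was the lowest for 28.5% of the genes that fell, against 42.2% of all genes, and for 33.3% against 29.4% with row sets aligned. The genes were called with these same arrays, and what sets replicate 2 of either stage apart was not tested.

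The male germ cell list held the gene with the largest rise of all. Nanos2 stood at 3.11, 2.73 and 3.23 at 13.5 dpc, against -1.0, 0.25 and -0.67 at 12.5 dpc. Every array of the later stage lay far above the highest of the earlier one, and the change was 3.49, SE 0.22, padj = 7.83e-14. Piwil4 encodes the PIWI protein MIWI2, which carries piRNAs into the nucleus, and it stood at 1.22, 0.27 and 0.87 at 13.5 dpc, against -0.64, -1.08 and -1.06 at 12.5 dpc. It rose with no overlap between the stages (1.71, SE 0.19, padj = 2.67e-07). Hesx1, a homeobox gene, rose by a similar amount (1.55, SE 0.18, padj = 6.88e-07), with levels of 2.23, 2.75 and 2.55 at 13.5 dpc and 0.46, 1.21 and 1.21 at 12.5 dpc. Morc1, an ATPase gene needed to silence transposons in male germ cells, did so too (1.55, SE 0.22, padj = 1.32e-05).

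Of the 19 measured genes of this list 5 rose, which were Nanos2, Piwil4, Hesx1, Morc1 and the helicase gene Tdrd9 (1.07, SE 0.20, padj = 0.000900), and 2 fell. Of all genes 1.3% rose and 1.55% fell. The median change of the list was -0.01, beside -0.0039 for all genes. Both genes that fell encode transcription factors. Etv1 stood at 2.47, 2.43 and 2.62 at 13.5 dpc, against 3.94, 4.13 and 3.81 at 12.5 dpc, a fall with no overlap (-1.46, SE 0.22, padj = 3.20e-05). Lhx1 fell by less (-0.71, SE 0.17, padj = 0.0134). Dnmt3l, the cofactor of DNA methylation that arrested male germ cells use later, was among the 12 genes that did not pass. Its levels were -1.95, -1.45 and -1.85 at 13.5 dpc and -1.70, -1.45 and -1.51 at 12.5 dpc, and they overlapped (-0.20, SE 0.16, padj = 0.637). Zbtb16 and Gfra1, genes of later spermatogonial stem cells, differed by 0.30 (padj = 0.459) and -0.15 (padj = 0.782).

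Among genes of piRNA and transposon silencing 10 of 22 measured members rose and 0 fell, where 1.3% of all genes rose. The median change was 0.75, and 21 of 22 members lay above 0. Gtsf1, a zinc finger partner of PIWI proteins, rose most in the list, with 2.40, 1.56 and 2.13 at 13.5 dpc, against -0.74, -0.62 and -0.25 at 12.5 dpc (2.57, SE 0.20, padj = 2.27e-11). Tdrd1, a Tudor domain scaffold that binds PIWI proteins, stood at 1.54, 0.73 and 1.57 at 13.5 dpc and at or below 0 in every array at 12.5 dpc (1.72, SE 0.22, padj = 2.50e-06). The stages did not overlap for either gene. Further members that rose were Exd1 (1.34, SE 0.24, padj = 0.000434), Mael (1.12, SE 0.22, padj = 0.00126), Tdrd5 (1.08, SE 0.23, padj = 0.00315), Ddx25 (0.84, SE 0.23, padj = 0.0298) and Tdrd7 (0.78, SE 0.19, padj = 0.0119), beside Piwil4, Morc1 and Tdrd9. MAEL and the Tudor proteins TDRD5 and TDRD7 are parts of the granules in which piRNAs are made and used.

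Not every gene of the pathway passed. Piwil2, whose PIWI protein is loaded first in the fetal testis, stood at 2.09, 0.97 and 2.24 at 13.5 dpc, against 1.34, 2.18 and 1.49 at 12.5 dpc, so that the stages overlapped (0.09, SE 0.26, padj = 0.917). Mov10l1, the helicase gene needed to make piRNAs, lay higher by 0.72 without passing (SE 0.21, padj = 0.0569). With row sets aligned Mov10l1 (0.96, padj = 0.000271), Tex15 (0.88, padj = 0.0174) and Rnf17 (0.48, padj = 0.0386) passed too, which made 13 of 22. With the misfit array in the fit 6 passed, and leaving out a single array gave 8 to 12.

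The start regions of 4 genes that rose are shown for the CpG sites in them, because germ cells of this age lose DNA methylation genome-wide and some germline genes are known to be held silent by promoter methylation in other cells. Each runs 5′ to 3′ over 250 bases before and 50 bases after an annotated start, from RefSeq on GRCm38.p6, with each CpG in capitals. Methylation was not measured in these samples.
Nanos2 (chr7:18987274-18987573, plus strand): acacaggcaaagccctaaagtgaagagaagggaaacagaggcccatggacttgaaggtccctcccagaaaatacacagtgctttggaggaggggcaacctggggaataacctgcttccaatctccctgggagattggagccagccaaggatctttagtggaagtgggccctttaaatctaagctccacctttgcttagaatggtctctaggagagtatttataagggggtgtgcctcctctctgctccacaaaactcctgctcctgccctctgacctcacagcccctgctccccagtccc
Gtsf1 (chr15:103430378-103430677, minus strand): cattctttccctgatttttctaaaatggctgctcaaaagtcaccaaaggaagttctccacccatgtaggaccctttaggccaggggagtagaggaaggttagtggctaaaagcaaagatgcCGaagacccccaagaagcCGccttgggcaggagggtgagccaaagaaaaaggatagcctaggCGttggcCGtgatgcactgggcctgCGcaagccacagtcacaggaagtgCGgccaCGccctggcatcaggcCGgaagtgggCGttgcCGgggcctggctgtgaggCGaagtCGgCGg
Tdrd1 (chr19:56825959-56826258, plus strand): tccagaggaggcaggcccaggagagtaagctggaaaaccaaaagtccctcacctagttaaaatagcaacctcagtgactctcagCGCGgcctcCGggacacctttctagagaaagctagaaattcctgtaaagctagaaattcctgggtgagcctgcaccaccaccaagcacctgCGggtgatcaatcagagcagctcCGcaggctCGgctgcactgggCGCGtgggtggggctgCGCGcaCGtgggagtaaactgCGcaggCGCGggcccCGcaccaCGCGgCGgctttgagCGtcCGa
Taf7l (chrX:134476441-134476740, minus strand): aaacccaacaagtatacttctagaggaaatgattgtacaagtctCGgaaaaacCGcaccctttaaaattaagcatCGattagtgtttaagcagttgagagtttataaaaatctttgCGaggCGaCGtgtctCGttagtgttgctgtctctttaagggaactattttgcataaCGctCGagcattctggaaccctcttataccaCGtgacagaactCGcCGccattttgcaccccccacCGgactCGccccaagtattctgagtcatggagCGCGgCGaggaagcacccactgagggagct
The Nanos2 window held 0 CpG, that of Gtsf1 13, that of Tdrd1 20 and that of Taf7l 17, and the median over the 15563 genes with such a window was 15. Observed over expected CpG was 0.531 for Gtsf1, 0.733 for Tdrd1 and 1.03 for Taf7l, with a median of 0.626 over all genes. The window of Piwil4, not shown, held 11 CpG, with 0.543 observed over expected. These genes were picked by hand and not by a rule. The median was 20 sites for the 9 piRNA genes that rose and had a window, 19 for all genes that rose and 20 for all genes that fell.

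Outside these lists the largest rises included metabolic genes and X-linked genes. Ptgr1, a reductase of prostaglandins and related lipids, stood at 4.29, 3.47 and 4.19 at 13.5 dpc, against 1.77, 1.66 and 2.10 at 12.5 dpc (2.14, SE 0.20, padj = 3.19e-09). Cbr3, a carbonyl reductase gene, rose as well (1.89, SE 0.24, padj = 2.50e-06), and so did Cers6, a ceramide synthase gene (1.62, SE 0.29, padj = 0.000485). Bnc2, which encodes the zinc finger protein basonuclin 2, stood at 3.77, 3.81 and 3.66 at 13.5 dpc, against 1.79, 1.23 and 1.74 at 12.5 dpc (2.16, SE 0.23, padj = 5.79e-08). Its later arrays lay close together, and that all lay above the earlier ones follows from the choice of genes. Klf12, a gene of the Krüppel-like transcription factors, also rose (1.73, SE 0.34, padj = 0.00167).

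X-linked genes made up 5 of the 15 named genes with the largest rises. Nxf2, of the mRNA export factor family, stood at 1.79, -0.45 and 0.69 at 13.5 dpc, against -2.24, -1.69 and -2.19 at 12.5 dpc (2.71, SE 0.28, padj = 5.18e-08). The later arrays of Nxf2 spread widely, and that all lay above the earlier ones follows from the choice of genes. Taf7l, the germ cell counterpart of a subunit of the general transcription factor TFIID, stood at 2.86, 2.10 and 2.59 at 13.5 dpc, against 0.16, 0.32 and -0.32 at 12.5 dpc (2.46, SE 0.31, padj = 2.50e-06). Dcaf8l (2.23, SE 0.35, padj = 6.30e-05), Xkrx (1.85, SE 0.28, padj = 3.16e-05) and Zmym3 (1.65, SE 0.22, padj = 6.23e-06) were the others.

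**Figure D1:**
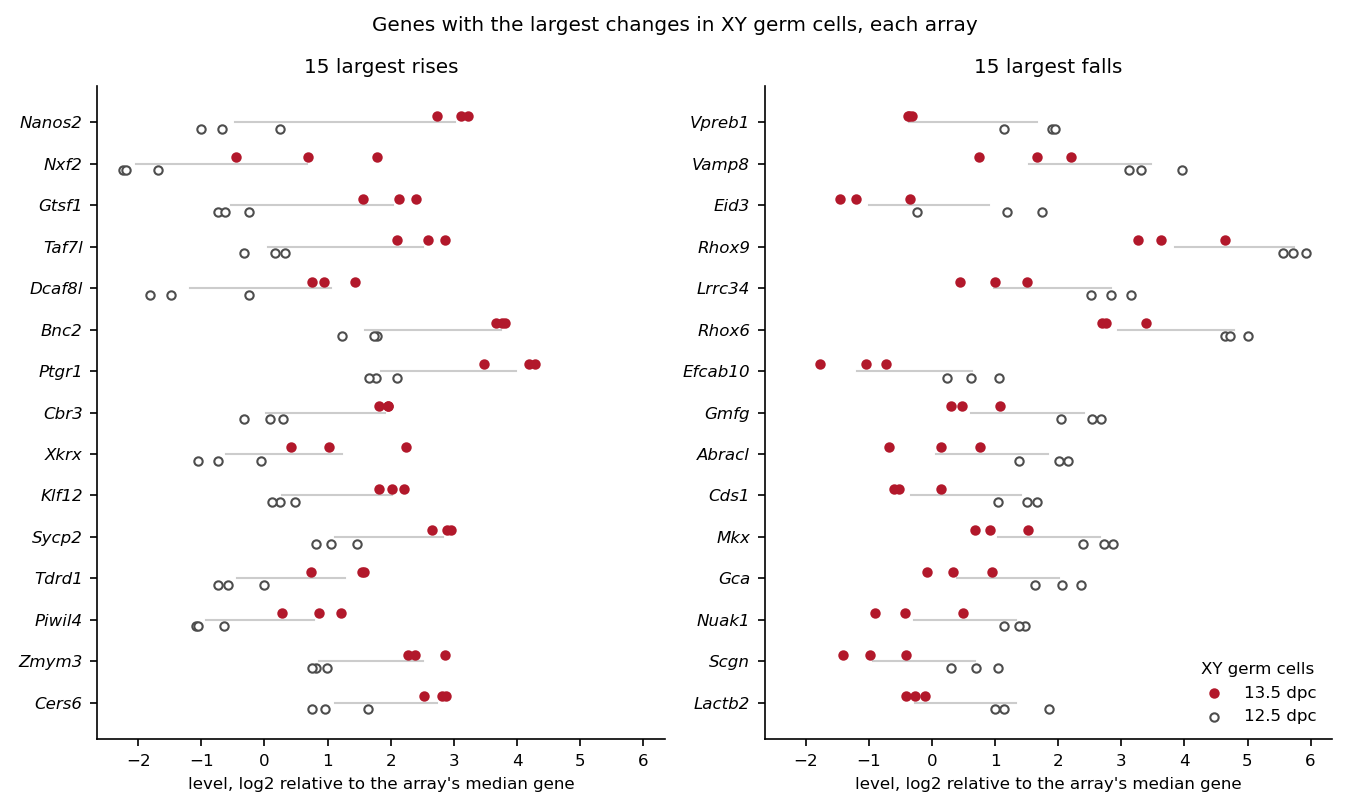
Levels of the 15 genes with the largest rises (left) and the 15 with the largest falls (right) in each XY germ cell array, in log2 relative to the array's median gene. Filled points are the 3 arrays at 13.5 dpc, open points the 3 at 12.5 dpc, and grey lines join the stage means. Genes were chosen among those whose stages do not overlap, so the gap between the colours is fixed by that choice. Nanos2 lies between 2.73 and 3.23 at 13.5 dpc and at 0.25 or lower at 12.5 dpc.

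Over the whole X chromosome 26 of 739 genes rose (3.52%) and 14 fell (1.89%), against 233 of 19106 autosomal genes that rose (1.22%) and 293 that fell (1.53%). Among single autosomes the share that rose ran between 0.419% and 2.17%. With row sets aligned 6.5% of X-linked and 2.74% of autosomal genes rose. In XX germ cells 7.85% of X-linked and 3.72% of autosomal genes rose between these stages. The shares describe these arrays and were not tested. Besides the genes above, the X-linked genes that rose included Usp26 (1.40, padj = 0.000123), a deubiquitinase gene, Mageb4 (1.21, padj = 0.000534), of the MAGE family, and Ogt (0.76, padj = 0.00236), the enzyme that adds GlcNAc to proteins. These were picked after their values had been seen.

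Of 29 measured meiotic genes 3 rose and 0 fell, where 1.3% of all genes rose. The median change was 0.09, and the larger rises were in parts of the synaptonemal complex, which joins chromosomes in meiosis. Sycp2 stood at 2.89, 2.65 and 2.96 at 13.5 dpc, against 0.81, 1.46 and 1.06 at 12.5 dpc (1.72, SE 0.23, padj = 6.20e-06). Sycp1 stood at 3.23, 2.54 and 3.14 at 13.5 dpc, against 0.98, 2.18 and 1.19 at 12.5 dpc (1.52, SE 0.25, padj = 0.000173). Neither gene overlapped between the stages. The recombination gene Msh4 also rose (0.65, SE 0.18, padj = 0.0316), a call it lost in 14 of 25 alternatives. The list's count was 4 with row sets aligned, 1 with the misfit array in the fit, and 2 with the values not centred and without replicate 1 or 3 at 13.5 dpc or replicate 2 or 3 at 12.5 dpc.

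Stra8, the retinoic acid target that starts meiosis, stood at -1.42, -1.20 and -1.15 at 13.5 dpc, against -1.21, -1.02 and -1.32 at 12.5 dpc (-0.07, SE 0.19, padj = 0.910). Sycp3, another gene of the complex, differed by 0.09 (padj = 0.930). In XX germ cells, where 9.16% of all genes changed between the same stages and 3.86% rose, 24 of the 29 genes rose, among them Stra8 (2.88, padj = 2.62e-12). The change differed between the sexes for 10 of the 29, each lower in XY cells (0.627% of all genes lay lower in this test). For Stra8 the difference, XY minus XX change, was -2.95, SE 0.28, padj = 1.17e-08, and for Prdm9, whose product sets recombination hotspots, it was -2.27, SE 0.38, padj = 0.000396. For Sycp2 (-0.90, SE 0.35, padj = 0.200) and Sycp1 (-0.76, SE 0.38, padj = 0.361) the test of the difference was not passed.

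**Figure D2:**
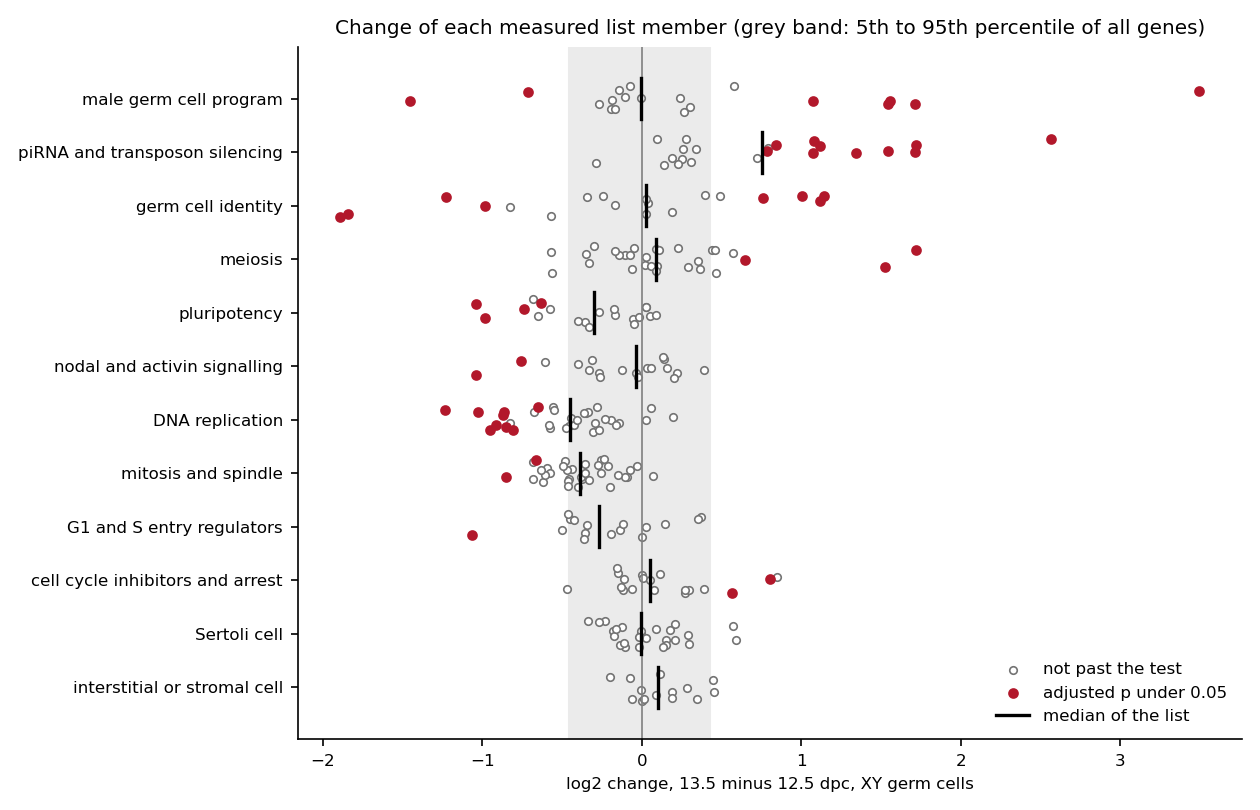
Log2 change (13.5 minus 12.5 dpc) in XY germ cells for every measured gene of 12 lists. Red points passed the test at padj under 0.05, the other points did not, black ticks are list medians, and the grey band from -0.457 to 0.425 holds the 5th to 95th percentile of all 19938 genes. The piRNA list has a median of 0.75, the DNA replication list of -0.45 and the mitosis list of -0.39.

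Cell cycle genes that passed fell, apart from 2 restrainers of the cycle given below. Of 34 measured DNA replication genes 9 fell and 0 rose, where 1.55% of all genes fell. Their median change was -0.45, and 31 of 34 lay below 0. Rrm2, the regulated subunit of the enzyme that makes deoxynucleotides, stood at 2.14, 2.35 and 2.14 at 13.5 dpc, against 3.53, 3.19 and 3.60 at 12.5 dpc (-1.23, SE 0.22, padj = 0.000350). Orc1, a subunit of the origin recognition complex, stood at 1.75, 1.85 and 1.54 at 13.5 dpc, against 2.59, 2.97 and 2.66 at 12.5 dpc (-1.03, SE 0.22, padj = 0.00318). In both genes all later arrays lay below all earlier ones. The others were the helicase subunit gene Mcm4 (-0.95, padj = 0.00340), the helicase loader Cdc6 (-0.92, padj = 0.0213), the licensing inhibitor Gmnn (-0.87, padj = 0.0300), the flap nuclease Fen1 (-0.86, padj = 0.00431), the large ribonucleotide reductase subunit Rrm1 (-0.85, padj = 0.00854), the clamp loader Rfc3 (-0.81, padj = 0.00413) and the thymidylate synthase Tyms (-0.65, padj = 0.0344).

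The number of replication genes that fell was 14 with row sets aligned, 6 with the misfit array in the fit and 3 without replicate 1 at 13.5 dpc. Pcna, the sliding clamp, differed by -0.27 (padj = 0.6) and the helicase subunit gene Mcm2 by -0.41 (padj = 0.441). Ccne1, the cyclin that drives cells into S phase, was the 1 gene of 16 regulators of G1 and S entry to fall, with 1.65, 1.61 and 1.21 at 13.5 dpc, against 2.44, 2.42 and 2.81 at 12.5 dpc (-1.07, SE 0.22, padj = 0.00290). It did not pass with the misfit array in the fit, and beside this 1 of 16 stand the 1.55% of all genes that fell. The D-type cyclin genes Ccnd1 (-0.14, padj = 0.865), Ccnd2 (0.02, padj = 0.973) and Ccnd3 (padj = 0.996) were not called.

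Start regions of 3 replication genes that fell are shown because E2F factors are known to drive such genes and are held inactive by RB1 in G1. They were chosen for holding a motif match, and the windows of the other 4 replication genes that fell and had one (Rrm2, Rrm1, Fen1 and Tyms) held 0 matches. Capitals mark matches to 1 of the E2F-type motifs TTTCCCGC, TTTGGCGC, TTTCGCGC and TTTGCCGC on either strand, and the window and source are as above.
Orc1 (chr4:108579204-108579503, plus strand): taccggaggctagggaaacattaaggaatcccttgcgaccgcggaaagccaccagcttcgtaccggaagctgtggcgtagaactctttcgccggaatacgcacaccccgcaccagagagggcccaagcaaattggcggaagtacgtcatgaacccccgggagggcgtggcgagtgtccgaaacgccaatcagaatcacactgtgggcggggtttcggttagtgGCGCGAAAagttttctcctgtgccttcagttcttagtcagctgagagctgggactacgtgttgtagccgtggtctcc
Cdc6 (chr11:98907901-98908200, plus strand): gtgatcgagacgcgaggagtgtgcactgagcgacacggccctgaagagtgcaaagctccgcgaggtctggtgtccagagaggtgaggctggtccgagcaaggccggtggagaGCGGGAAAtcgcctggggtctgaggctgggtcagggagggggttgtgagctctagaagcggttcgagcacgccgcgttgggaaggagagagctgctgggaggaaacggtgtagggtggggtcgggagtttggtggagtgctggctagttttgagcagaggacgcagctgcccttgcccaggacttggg
Rfc3 (chr5:151651159-151651458, minus strand): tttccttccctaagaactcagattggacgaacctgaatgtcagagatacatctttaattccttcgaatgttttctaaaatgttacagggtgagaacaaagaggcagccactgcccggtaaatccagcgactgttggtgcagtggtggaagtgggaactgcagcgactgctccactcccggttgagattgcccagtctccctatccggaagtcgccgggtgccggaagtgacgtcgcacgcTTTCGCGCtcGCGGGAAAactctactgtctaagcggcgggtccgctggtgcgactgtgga
Counted from the annotated start, the match began at -27 in Orc1 and at -138 in Cdc6, and Rfc3 held 2 matches close to its start. Of 27 replication genes with such a window 11 held a match (40.7%), as did 1 of 27 mitosis genes (3.7%) and 3.08% of all 15563 genes. Of all genes that fell 19 of 242 held a match (7.85%), and of those that rose 7 of 209 (3.35%). Among the replication genes that fell 3 of 7 held one (42.9%), close to the share of the whole list. A match is a description of these letters, and binding was not measured.

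Of 34 measured mitosis and spindle genes 2 fell and 0 rose, where 1.55% of all genes fell, with a median change of -0.39 and 33 of 34 below 0. Cenpa, the histone variant of the centromere, stood at 2.26, 2.52 and 2.47 at 13.5 dpc, against 3.2, 3.17 and 3.45 at 12.5 dpc (-0.85, SE 0.20, padj = 0.0105), and Incenp, of the chromosomal passenger complex, fell as well (-0.67, padj = 0.0293). Mki67, the proliferation marker, stood at 3.06, 3.10 and 2.97 at 13.5 dpc, against 3.13, 3.24 and 3.47 at 12.5 dpc, a difference that did not pass (-0.24, SE 0.21, padj = 0.687). Without replicate 1 at 13.5 dpc 0 mitosis genes passed, and without replicate 2 at 13.5 dpc 4 did. The count was 5 when only the 6 arrays compared were fitted and 3 with row sets aligned. It was 1 without replicate 3 at 13.5 dpc, without replicate 2 or 3 at 12.5 dpc, with quantile normalisation and with the misfit array in the fit. In XX germ cells 5 of the 34 genes fell between these stages, where 5.31% of all genes did, with a median change of -0.30. The change differed between the sexes for 0 of the 34, where it differed for 1.5% of all genes.

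Of 19 genes that restrain the cell cycle 2 rose, where 1.3% of all genes rose, the retinoblastoma gene Rb1 (0.56, SE 0.16, padj = 0.0481) and the unconventional cyclin gene Ccng2 (0.81, SE 0.20, padj = 0.0133). Cdkn1b, which encodes the inhibitor p27 known to mark arrest in these cells, stood at 2.65, 2.19 and 2.55 at 13.5 dpc, against 0.52, 2.55 and 1.78 at 12.5 dpc. Its earlier arrays spread widely and overlapped the later ones (0.85, SE 0.36, padj = 0.263), and the gene passed with row sets aligned (1.11, padj = 0.0453). Cdkn2b, which encodes the inhibitor p15, was not called (padj = 0.996). The count of 2 was 5 with row sets aligned, 1 with the values not centred and 0 with the misfit array in the fit. It was 0 or 1 when any of the 6 arrays was left out.

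Pluripotency genes that passed fell. Of 20 measured, 4 fell and 0 rose, where 1.55% of all genes fell, with a median change of -0.30 and 16 of 20 below 0. Tdgf1, the gene of a NODAL coreceptor, stood at 2.38, 2.86 and 3.17 at 13.5 dpc, against 3.68, 3.80 and 4.05 at 12.5 dpc (-1.04, SE 0.23, padj = 0.00513). Nanog stood at 0.98, 1.69 and 2.06 at 13.5 dpc, against 2.42, 2.13 and 2.39 at 12.5 dpc (-0.74, SE 0.19, padj = 0.0226). Sox2 (-0.63, padj = 0.0298) and the chromatin factor gene Dppa2 (-0.99, padj = 0.00121) were the others. Pou5f1, which drives the sorted reporter, differed by 0.03 (padj = 0.973). The count was 6 when only the 6 arrays compared were fitted, 5 with row sets aligned, 2 with the values not centred, quantile normalised or without replicate 3 at 12.5 dpc, 1 without replicate 1 at 13.5 dpc and 0 with the misfit array in the fit.

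NODAL signalling is known to be active in XY germ cells for a short time and to keep pluripotency genes on. Of 19 genes of NODAL and activin signalling 2 fell, where 1.55% of all genes fell. They were Tdgf1 and the transcription factor gene Foxh1 (-0.76, SE 0.18, padj = 0.00985). The ligand gene Nodal stood at 0.67, 0.52 and 0.53 at 13.5 dpc, against 0.25, 0.82 and 0.48 at 12.5 dpc, and the stages overlapped (0.06, SE 0.18, padj = 0.930). The feedback inhibitors Lefty1 (0.03, padj = 0.967) and Lefty2 (-0.60, padj = 0.133) were not called, and Lefty2 passed with row sets aligned (-0.64, padj = 0.0363). Without replicate 1 at 13.5 dpc, and with the misfit array in the fit, 0 genes of the pathway passed. Without replicate 3 of either stage 1 did. In XX germ cells 5 of the 19 genes fell between these stages, where 5.31% of all genes did. The median change was -0.22 in XX and -0.03 in XY cells. For 0 of the 19 did the change differ between the sexes, where it differed for 1.5% of all genes.

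The germ cell identity list split. Of 19 genes 4 rose and 4 fell, where 1.3% of all genes rose and 1.55% fell. The median change was 0.03, and Ddx4 (0.19, padj = 0.828), Dazl (0.04, padj = 0.970) and Dppa3 (-0.17, padj = 0.814) did not pass. Nanos3, which protects migrating germ cells, rose, with 2.54, 2.83 and 2.58 at 13.5 dpc, against 1.97, 1.81 and 1.89 at 12.5 dpc (0.76, SE 0.17, padj = 0.00777). Stk31, a Tudor domain kinase gene (1.00, padj = 0.00242), Mael and the surface glycoprotein gene Tex101 (1.14, padj = 0.00196) rose as well. The genes that fell were Dppa2, Kit, Rhox6 and Rhox9. With the misfit array in the fit 1 gene rose and 0 fell.

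Kit, the receptor for a survival signal from somatic cells, stood at 2.14, 2.73 and 2.28 at 13.5 dpc, against 3.33, 3.79 and 3.72 at 12.5 dpc. The stages did not overlap (-1.23, SE 0.18, padj = 2.49e-05). Among 17 niche receptor and adhesion genes Pecam1, an adhesion gene that germ cells share with endothelium, fell too (-0.90, SE 0.22, padj = 0.0133), while the other 14 endothelial cell genes did not pass. Ret, the receptor for GDNF in spermatogonia, rose, with 1.10, 0.36 and 0.69 at 13.5 dpc, against -0.60, -0.36 and -0.10 at 12.5 dpc (1.07, SE 0.20, padj = 0.000978). In the niche list 1 of 17 genes rose and 2 fell, where 1.3% of all genes rose and 1.55% fell. With row sets aligned 2 genes of the list rose and 3 fell, and with the misfit array in the fit 1 rose and 0 fell. Without replicate 1 or 3 at 13.5 dpc, or replicate 2 or 3 at 12.5 dpc, 1 fell.

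Rhox9 and Rhox6, homeobox genes of a reproductive cluster on the X chromosome, were among the largest falls. Rhox9 stood at 3.63, 4.64 and 3.27 at 13.5 dpc, against 5.72, 5.56 and 5.93 at 12.5 dpc (-1.89, SE 0.34, padj = 0.000534). Rhox6 stood at 2.69, 3.39 and 2.76 at 13.5 dpc, against 4.65, 4.72 and 5.0 at 12.5 dpc (-1.84, SE 0.23, padj = 2.14e-06). In XX germ cells Rhox9 was not called (padj = 0.953), with 6.38, 6.59 and 6.44 at 13.5 dpc and 6.75 and 6.08 at 12.5 dpc. Members of this cluster resemble each other in sequence, and whether the probe sets keep them apart was not tested.

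Vpreb1 had the largest fall in the plot of genes by array. It encodes a chain known from the receptor of pre-B cells and stood at -0.32, -0.38 and -0.37 at 13.5 dpc, against 1.14, 1.90 and 1.95 at 12.5 dpc (-2.02, SE 0.45, padj = 0.00595). It kept its call in 18 of 26 alternatives. Vamp8, a vesicle fusion gene, stood at 0.74, 2.21 and 1.67 at 13.5 dpc, against 3.97, 3.13 and 3.31 at 12.5 dpc (-1.93, SE 0.29, padj = 3.20e-05). Further falls were in Eid3, linked to the SMC5/6 chromosome complex (-1.90, padj = 0.00282), Lrrc34 (-1.85, padj = 7.94e-05), Efcab10 (-1.82, padj = 0.000119), the actin regulator genes Gmfg (-1.79, padj = 8.30e-05) and Abracl (-1.77, padj = 4.58e-06), the phospholipid enzyme gene Cds1 (-1.74, padj = 0.000167) and the homeobox gene Mkx (-1.62, padj = 2.50e-06). The calcium-binding protein genes Gca (-1.62, padj = 1.31e-05) and Scgn (-1.61, padj = 1.14e-05), the kinase gene Nuak1 (-1.62, padj = 0.00182) and Lactb2 (-1.60, padj = 6.23e-06) completed the 15. Eid3 came close to overlap, with -1.46, -0.35 and -1.20 at 13.5 dpc, against 1.75, -0.24 and 1.19 at 12.5 dpc.

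To see which changes differed from those in the ovary, the change in XY germ cells was set against that in XX germ cells in the same fit. It differed for 299 genes (1.5% of all genes), 174 higher and 125 lower in XY, and 76 of these also changed in XY cells. Nanos2 differed most among the named genes that were higher in XY (3.19, SE 0.33, padj = 5.75e-08). Its XX arrays stood at -1.14, -0.60 and -0.78 at 13.5 dpc and -1.06 and -1.22 at 12.5 dpc. Morc1 (2.49, SE 0.33, padj = 8.79e-06), Ptgr1 (2.11, SE 0.30, padj = 4.04e-05), Piwil4 (1.87, SE 0.29, padj = 0.000165), the X-linked gene Armcx4 (2.16, SE 0.38, padj = 0.000759) and Uchl1, a deubiquitinase gene of spermatogonia (1.98, SE 0.42, padj = 0.00914), were higher in XY as well, and none of these rose in XX cells. The 299 rest on 2 XX arrays at 12.5 dpc, and the count was 85 without replicate 2 of that group. It was 154 without replicate 3 of XX germ cells at 13.5 dpc and 187 without replicate 3 of XY germ cells at 13.5 dpc. Without replicates 1, 2 and 3 of XY germ cells at 12.5 dpc it was 549, 160 and 183, and with row sets aligned it was 458.

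For other genes that rose the test of the difference was not passed. Gtsf1 rose in XX cells too (1.90, padj = 2.01e-07), as did Taf7l (2.75, padj = 1.13e-06). The difference was 0.67 for Gtsf1 (SE 0.30, padj = 0.287) and -0.29 for Taf7l (SE 0.47, padj = 0.835). In the piRNA list 4 genes differed, all higher in XY (0.873% of all genes), namely Morc1, Piwil4, Tdrd5 (1.49, padj = 0.0150) and Tdrd1 (1.37, padj = 0.0212). Gtsf1l, a relative of Gtsf1, stood in XY cells at 1.69, 1.28 and 2.40 at 13.5 dpc, against 0.88, 1.36 and 0.69 at 12.5 dpc, and in XX cells at -0.48, -0.66 and -0.85 at 13.5 dpc and 1.63 and 1.02 at 12.5 dpc. It rose in XY cells (0.81, padj = 0.0370) and fell in XX cells (-1.99, padj = 1.16e-06), a difference of 2.80, SE 0.34, padj = 2.07e-06. Nanos3, which rose in XY cells, fell in XX cells (-1.05, padj = 0.000438), a difference of 1.81, SE 0.26, padj = 4.68e-05.

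Genes whose change was lower in XY than in XX included Ugt8a, which encodes a galactosyltransferase of glycolipid synthesis. In XY cells it stood at -0.43, 0.79 and 0.13 at 13.5 dpc, against 0.94, 1.12 and 0.99 at 12.5 dpc, and in XX cells at 2.13, 1.34 and 2.93 at 13.5 dpc and 0.24 and 0.09 at 12.5 dpc. The difference was -2.83, SE 0.37, padj = 6.94e-06. Its fall in XY cells (-0.85, padj = 0.0459) did not pass with row sets aligned (-0.74, padj = 0.0698). Zdhhc2, a palmitoyltransferase gene, fell in XY (-1.10, padj = 0.000310) and rose in XX cells (0.72, padj = 0.0285), a difference of -1.82, SE 0.29, padj = 0.000190. Tex101 rose in both, by more in XX cells (-1.73, SE 0.34, padj = 0.00395). Emc7 (-1.70, padj = 0.00570), Muc19 (-1.45, padj = 0.00526), Pde8a (-1.44, padj = 0.00724), Nrm (-1.39, padj = 0.0212) and Rhox9 (-1.95, padj = 0.0417) were further genes in this direction.

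In XX cells 11 of the 20 pluripotency genes fell, where 5.31% of all genes did. Nanog fell by more in XX cells (-1.96, padj = 5.59e-08), and the difference was 1.22, SE 0.29, padj = 0.0196. It did not pass with row sets aligned (0.77, padj = 0.130). Differences for Tdgf1 (0.42, padj = 0.640), Sox2 (0.32, padj = 0.630) and Dppa2 (1.03, padj = 0.0546) did not pass. Of the replication list 1 of 34 differed, the fork protection gene Tipin, lower in XY (-1.42, padj = 0.0345), where 0.627% of all genes were lower in this test. For Rrm2 (-1.0, padj = 0.111) and Ccne1 (-1.01, padj = 0.118) the difference did not pass, and that of Ccne1 did with row sets aligned (-1.09, padj = 0.00648).

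**Figure D3:**
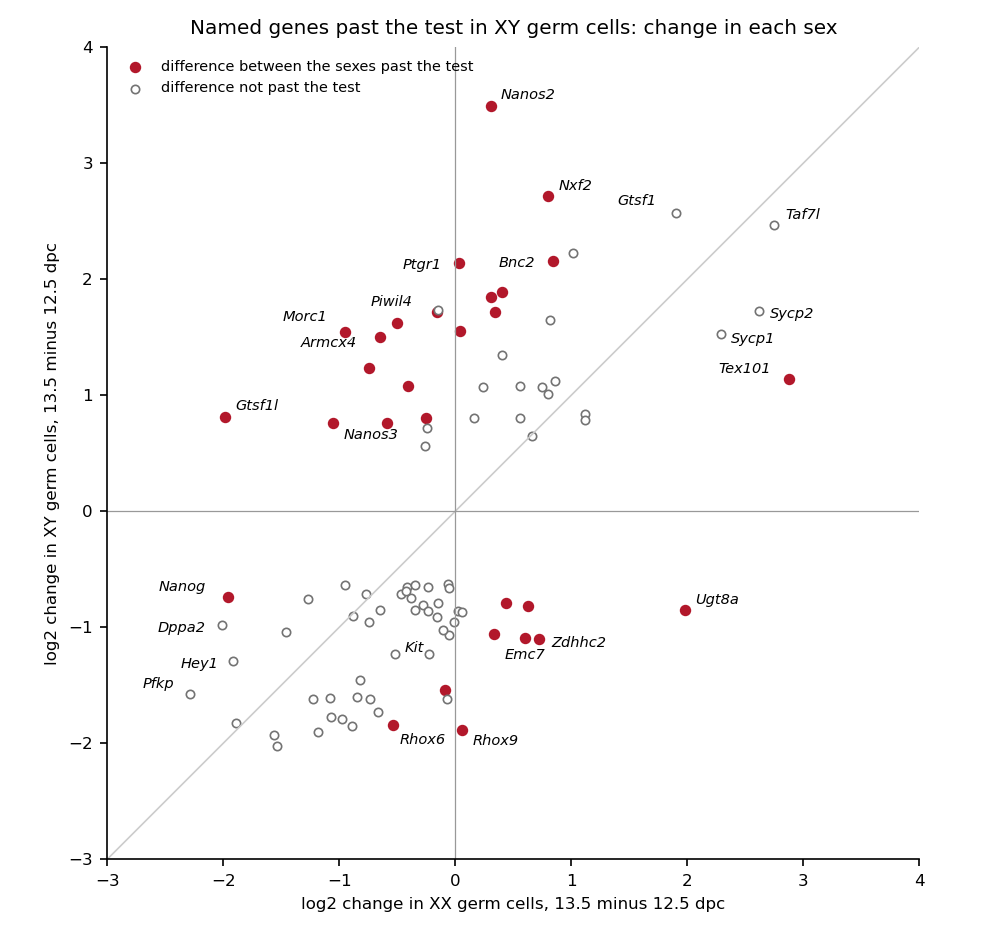
Log2 change (13.5 minus 12.5 dpc) in XY germ cells (vertical axis) against that in XX germ cells (horizontal axis) for the 93 named genes that passed the test in XY cells. Red points are the 29 genes whose change also differed between the sexes. Of the 93 genes 71 have the same sign in both sexes. Some genes were named because they passed the test of the difference, so both counts are shaped by that choice. Of all 568 genes that changed in XY cells, 76 also differed. Gtsf1l, Nanos3 and Morc1 lie higher in XY and lower in XX, and Ugt8a and Zdhhc2 the other way.

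On the day before, from 11.5 to 12.5 dpc, 351 genes changed in XY germ cells (1.76% of all genes), 172 higher (0.863%) and 179 lower (0.898%). Both comparisons use the 12.5 dpc arrays, so their values are given side by side and no shared count is drawn. Hesx1 had means of -1.16, 0.96 and 2.51 on the 3 successive days, with a rise on the first day too (2.12, padj = 6.58e-10). Bnc2 had means of -0.33, 1.59 and 3.74 (first day 1.92, padj = 7.81e-07) and Sycp2 of -0.73, 1.11 and 2.83 (first day 1.84, padj = 1.85e-06). These genes rose on both days. Nanos2 (0.33, padj = 0.590) and Piwil4 (0.27, padj = 0.619) were not called on the first day.

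Other genes turned. Etv1 had means of 2.48, 3.96 and 2.50 on the 3 days (first day 1.48, padj = 2.89e-05) and Lhx1 of 0.32, 1.69 and 0.98 (first day 1.37, padj = 2.13e-06). Gtsf1l had means of 2.77, 0.98 and 1.79 (first day -1.80, padj = 1.86e-06) and Morc1 of 1.23, 0.34 and 1.88 (first day -0.89, padj = 0.0201). A deviation of the shared 12.5 dpc arrays alone moves such values in opposite directions on the 2 days. Kit (0.01, padj = 0.992) and Rrm2 (-0.37, padj = 0.496) were not called on the first day. The count of 351 was 208 without replicate 2 of XY germ cells at 12.5 dpc, 181 with array weights, 134 with the misfit array in the fit and 588 with row sets aligned.

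**Figure D4:**
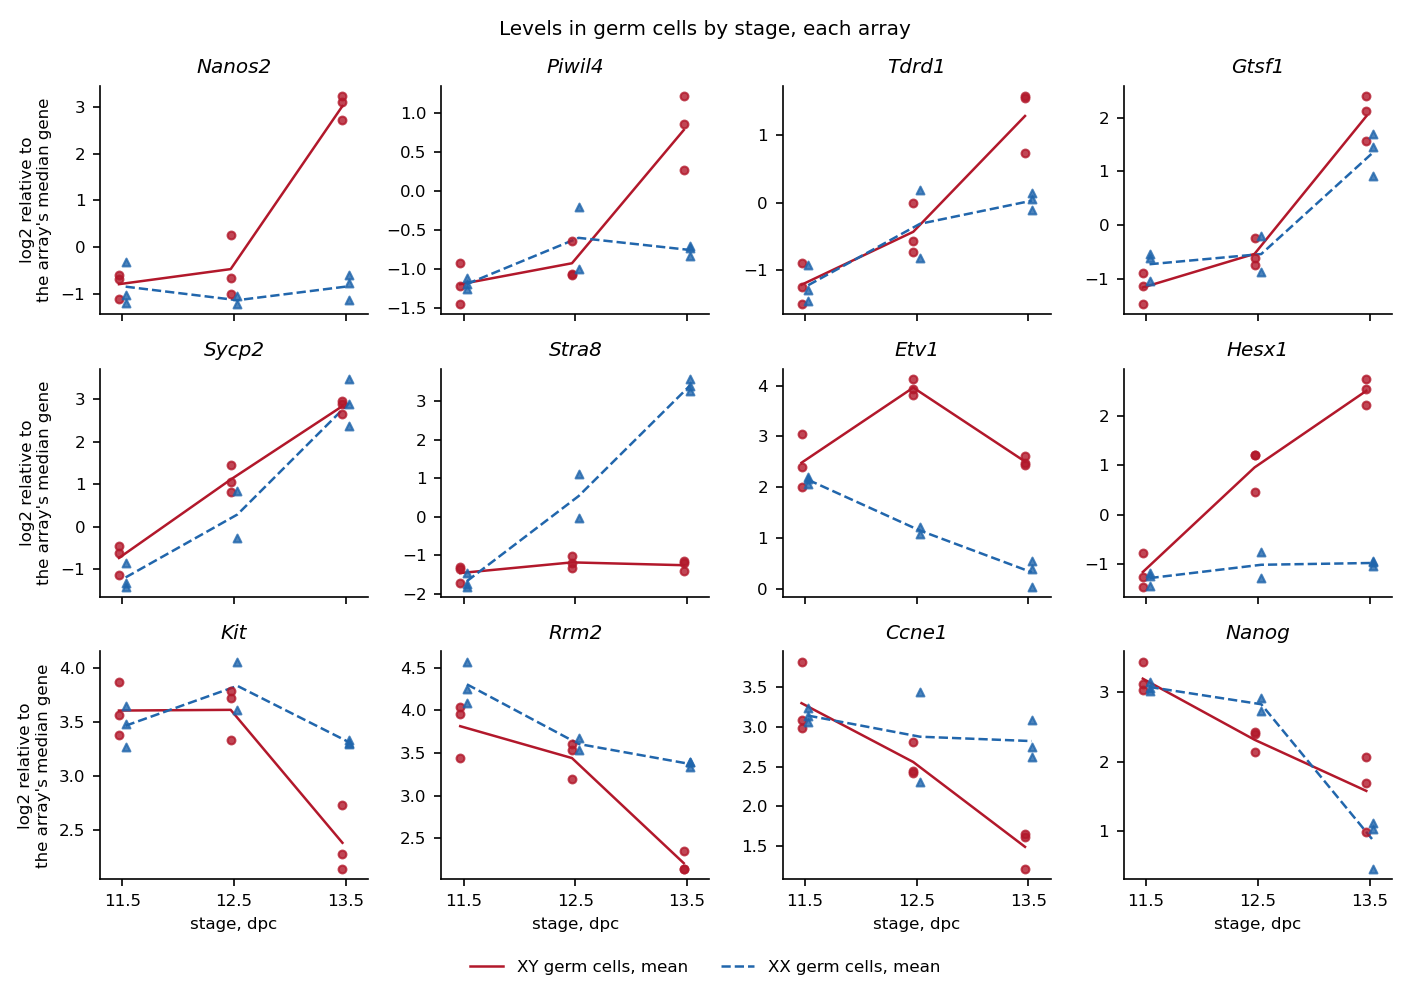
Levels of 12 genes at the 3 stages (horizontal axis, in dpc) in XY germ cells (red circles, solid line through the means) and XX germ cells (blue triangles, dashed line), in log2 relative to the array's median gene. Each group has 3 arrays, except XX germ cells at 12.5 dpc with 2. Nanos2 in XY cells has means of -0.80, -0.47 and 3.02 over the 3 stages, and Etv1 has its highest mean in XY cells at 12.5 dpc.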

How the data were processed

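Each of 36 sorted cell samples (12 groups of 3) was measured on 1 Affymetrix Mouse Gene 1.0 ST array. The deposited values are log2 expression per probe set. Per the submitters' processing notes the authors made them with RMA (version not stated there). RMA compresses differences of dim probes. The table holds 35557 probe sets, of which 21789 had 1 gene symbol, 1621 several and 12147 none, and for 21698 of the probe sets with 1 symbol it matched the reference. Where a gene had several probe sets (999 genes) only the brightest entered, giving 19938 genes. Each array was centred on its median gene. No array was identical to another, and no scan dates or batches were given in the sources used here.

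limma 3.58.1 in R 4.3.3 was fitted with 12 group means to 35 arrays (23 residual degrees of freedom), since all groups share 1 estimate of spread, and p-values were adjusted by Benjamini-Hochberg over all genes. A permutation test of 3 arrays against 3 cannot go below 0.1, so none was used. The fit was tested on simulated data with independent normal noise and no row sets. That test cannot show how the row scales affect the p-values. Python 3.11.15, numpy 2.4.6, pandas 2.3.3 and matplotlib 3.10.9 served for tables and figures. In each array rows fell into interleaved sets, 107 in all, with slopes of 1.0099 to 1.059 between values. Putting them on 1 scale lowered the median replicate SD to 0.107, against 0.227 for centred values. Other alternatives were no centring, quantile normalisation, other sets of arrays, a filter on dim genes, the mean of probe sets, an intensity trend, array weights, the replicate number as a block and each array left out.

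Named genes were the 15 largest rises and 15 largest falls among genes with a standard symbol whose stages did not overlap, the 8 largest differences between the sexes in each direction among genes past both tests, and members of 32 lists. The comparison and the lists were chosen with earlier results of these data known. Start regions came from RefSeq (GRCm38.p6), found for 15563 of the genes.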

Additional observations from a re-analysis of the deposited data

Results flagged for a closer look

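For 29 of the named genes that changed between 13.5 and 12.5 dpc in XY germ cells, the change differed from that in XX germ cells by limma's test of the difference (padj under 0.05 over 19938 genes). Values are log2, XY change minus XX change. For 19 genes the change was higher in XY: Nanos2 (3.19), Gtsf1l (2.80), Morc1 (2.49), Armcx4 (2.16), Cers6 (2.12), Ptgr1 (2.11), Uchl1 (1.98), Nxf2 (1.91), Piwil4 (1.87), Nanos3 (1.81), Xkrx (1.54), Hesx1 (1.52), Cbr3 (1.49), Tdrd5 (1.49), Tdrd1 (1.37), Tet2 (1.34), Bnc2 (1.32), Nanog (1.22), Pmaip1 (1.06). For 10 genes it was lower in XY: Ugt8a (-2.83), Rhox9 (-1.95), Zdhhc2 (-1.82), Tex101 (-1.73), Emc7 (-1.70), Muc19 (-1.45), Pde8a (-1.44), Nrm (-1.39), Rhox6 (-1.30), Id3 (-1.23). All 29 differences kept their direction with row sets aligned, and 24 passed the test there. Some of the 29 were named because they passed this test with a large difference, so their number is shaped by that choice. Only 2 XX arrays at 12.5 dpc entered the fit.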

How the results depend on the processing

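Of the named genes past the test, 0 reversed direction under any alternative run. The balance of rises and falls turned in some alternatives. As given above 259 genes rose and 309 fell, against 574 and 501 with row sets aligned and 274 and 239 with quantile normalisation. The median change of the male germ cell list was -0.01, and 0.11 with row sets aligned. The count of changed genes in XY germ cells, 568, was 1075 with row sets aligned, 270 with all 36 arrays, 855 with the 6 arrays of the comparison alone, 1040 with row sets aligned and the replicate block, and 1089 with row sets aligned and the 6 arrays alone. Leaving out 1 of the 6 arrays gave 289 to 583, and 658 to 1131 with row sets aligned. The count of genes that differed between the sexes, 299, was 458 with row sets aligned, 493 with row sets aligned and all 36 arrays, and 85 to 549 when 1 array was left out. The count for 12.5 minus 11.5 dpc, 351, was 588 with row sets aligned, 134 with all 36 arrays, 181 with array weights and 208 to 410 when 1 array was left out. Where an alternative used fewer samples, its power changed by construction, and otherwise the cause was not tested. Where 1 XX array remained at 12.5 dpc, it was assumed to vary like the other groups. Of the 93 named genes past the test, 31 passed under every alternative, 44 were lost with all 36 arrays, 38 without replicate 1 at 13.5 dpc, 16 with the values not centred, 10 with quantile normalisation and 4 with row sets aligned. The labels share replicate numbers across stages and do not say what a number shares. Same-numbered arrays deviated at correlations of -0.275, -0.168 and -0.0337 with centred values. With row sets aligned these correlations were 0.136, -0.0499 and 0.0455. Arrays of different numbers gave -0.116 to 0.299 with centred values and -0.133 to 0.0993 with row sets aligned. Deviations within 3 arrays sum to 0, so these values cannot say whether the numbers are pairs. The numbers were not taken as pairs. With the number as a replicate block the counts were 604, 218 and 368. Alternatives that combine row sets aligned with another choice were chosen after seeing the data. Without centring, the median of all genes moved by -0.071. Array data of 3 samples a group limit the precision, and changes near the background level of dim probes are compressed.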

Other observations

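Of all genes 1.3% rose and 1.55% fell, beside which the counts of these further lists stand. In the retinoic acid list 2 of 19 genes rose, Crabp2, which carries retinoic acid to its receptors (1.07, padj = 0.0142), and Aldh1a2, which makes it (0.71, padj = 0.0345), while the degrading enzyme gene Cyp26b1 was not called (padj = 0.6). Crabp2 stood at 3.10, 2.78 and 2.82 at 13.5 dpc, against 1.32, 2.24 and 1.91 at 12.5 dpc. The list's count was 0 without replicate 1 of either stage, 1 without replicate 2 of either stage, without replicate 3 at 13.5 dpc, with the values not centred or with the misfit array in the fit, and 3 without replicate 3 at 12.5 dpc. Among 14 targets of BMP signals 2 fell, Hey1, with 2.26, 2.12 and 1.87 at 13.5 dpc, against 3.49, 3.10 and 3.55 at 12.5 dpc (-1.30, SE 0.20, padj = 4.34e-05), and Id3 (-0.79, padj = 0.0373). The BMP count was 1 without replicate 1 or 3 at 13.5 dpc, without replicate 2 or 3 at 12.5 dpc and with the misfit array in the fit. In the FGF list 2 of 17 fell, Etv1 and its relative Etv4 (-0.75, padj = 0.00508), with 1 falling without replicate 1 at 13.5 dpc, and 0 of 13 WNT genes were called by limma, with 0 at an unadjusted p under 0.05 and 1 higher with row sets aligned. Of 18 apoptosis and p53 genes the BH3 gene Pmaip1 rose (0.81, padj = 0.00975) and Ccng1 fell (-0.65, padj = 0.0351), a call that Ccng1 lost with row sets aligned (-0.38, padj = 0.240). No gene of this list rose without replicate 2 or 3 at 13.5 dpc, without replicate 1 or 2 at 12.5 dpc or with the values not centred, and none fell without replicate 1 at 13.5 dpc or any 1 array at 12.5 dpc.

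Among 16 genes of DNA methylation and its removal 1 rose, the TET oxygenase gene Tet2, with 1.29, 1.18 and 1.31 at 13.5 dpc, against 0.76, 0.69 and 0.06 at 12.5 dpc (0.75, SE 0.21, padj = 0.0332). The count was 0 without any 1 array at 13.5 dpc, without replicate 3 at 12.5 dpc, with the values not centred and with the misfit array in the fit. The methyltransferase gene Dnmt3a was not called (0.49, padj = 0.133) and passed with row sets aligned (0.55, padj = 0.0132). Of 30 histone and chromatin regulators 2 fell, Hdac1 (-0.71, padj = 0.00894) and Ezh2, of the Polycomb complex (-0.63, padj = 0.0458), and with row sets aligned 5 rose and 2 fell. No regulator fell without replicate 1 or 3 at 13.5 dpc, without replicate 1 at 12.5 dpc or with quantile normalisation, and 3 fell without replicate 2 at 13.5 dpc. With the values not centred, with the misfit array in the fit or without replicate 2 or 3 at 12.5 dpc 1 fell. Of 25 imprinted genes 3 fell, Slc38a4 (-0.96, padj = 0.00824), Phlda2 (-0.79, padj = 0.0134) and Peg3 (-0.69, padj = 0.0227). The count was 1 without replicate 1 or 2 at 13.5 dpc, without replicate 2 or 3 at 12.5 dpc and with the misfit array in the fit. Of 26 RNA-binding regulators Nanos2 and Nanos3 rose, and Nanos1 fell (-0.63, padj = 0.0410) without passing with row sets aligned (-0.42, padj = 0.0519) or when any 1 array other than replicate 2 at 13.5 dpc was left out. Pfkp, a glycolytic phosphofructokinase gene, stood at 0.30, 0.82 and 0.46 at 13.5 dpc, against 2.37, 1.83 and 2.12 at 12.5 dpc and was the 1 of 22 glycolysis genes to fall (-1.58, SE 0.22, padj = 1.04e-05), with 3 falling with row sets aligned. Of 24 oxidative phosphorylation genes, 20 cholesterol and fatty acid genes and 8 Y-linked genes 0 were called by limma, and 4, 2 and 2 had an unadjusted p under 0.05.

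The Rhox cluster had 8 measured members. Besides Rhox9 and Rhox6, Rhox8 fell (-0.97, padj = 0.0232), while Rhox13 (-0.49, padj = 0.574), Rhox1 (padj = 0.965), Rhox10 (padj = 0.767), Rhox11 (padj = 0.832) and Rhox12 (padj = 0.709) were not called. Rhox10 passed, with a rise, with row sets aligned (0.44, padj = 0.0357). Rhox8, Rhox13 and the others here were looked up after the values of the cluster had been seen.

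Of 9 erythroid genes the transferrin receptor gene Tfrc fell (-0.86, padj = 0.0104), and the embryonic globin gene Hbb-y lay at 0.01 to 0.43 at 13.5 dpc and at 1.86 to 2.31 at 12.5 dpc without passing (-1.85, padj = 0.293). Of 14 mesonephric and epithelial genes Ret rose and Lhx1 fell, and of 16 genes of dissociation stress Ier3 rose (0.80, padj = 0.0380). The part of carried-over cells or of stress in these values was not tested.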
